A study of Mus musculus with 6 samples.

Results

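The passenger strands of miRNA hairpins were followed in bone marrow-derived macrophages with an intact or a floxed gene of Dicer, the RNase that cuts precursor hairpins into short duplexes. Passenger strands were taken by name, as the mouse assays that the panel marks with a star or with its own equivalent, #, and they are written here with #. The panel held 596 miRNA assays, of which 64 carried the mark. Of these, 5 were left out by the rule for this set (miR-21#, miR-297a#, miR-467e#, miR-712# and miR-877#), and 59 passenger strands remained. TaqMan RT-PCR gave a threshold cycle (Ct) for each assay in 6 samples, in which a Ct lower by 1 stands for a doubling of template and wells without amplification are listed at 40.

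The 3 control samples (WT) were macrophages of LysM-Cre/Dicer wt/wt/Apoe-/- mice. The 3 knockout samples (KO) were macrophages of LysM-Cre/Dicer flox/flox/Apoe-/- mice. Apoe was thus missing from both groups, and both held the Cre recombinase under the LysM promoter, a promoter of myeloid cells. The mice were male and aged 6 to 8 weeks, and the marrow was cultured for 7 days with L929-conditioned medium, a source of macrophage colony-stimulating factor. The labels call the samples biological replicates and do not say whether each came from 1 mouse, so the p values measure the spread between these samples. The panel had no assay of Dicer mRNA, and the labelled deletion was not checked at its target. In bulk RNA, fewer cells that make a strand and less of it per cell cannot be told apart.

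Dicer releases a duplex in which the 5p and 3p arms of the hairpin are still paired. An Argonaute protein keeps 1 strand, the guide, whose seed (bases 2 to 8) finds target messenger RNAs, and the passenger strand is usually discarded and degraded. Some passenger strands are loaded and repress targets of their own, and both strands come from the same cut of the hairpin.

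The sequences below are those of passenger strands that passed the test described later or that anchor a comparison, each beside the guide of its hairpin. They are the mature sequences of RefSeq for GRCm38.p6, written 5′ to 3′ with the seed in capitals. The arm behind each older name was assigned from general knowledge, since the panel's names do not give it.
let-7a#: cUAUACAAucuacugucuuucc
let-7a guide: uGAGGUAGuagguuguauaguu
let-7c-1#: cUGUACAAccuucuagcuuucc
let-7c guide: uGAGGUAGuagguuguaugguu
let-7g#: aCUGUACAggccacugccuugc
let-7g guide: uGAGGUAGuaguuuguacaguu
miR-15a#: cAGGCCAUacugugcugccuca
miR-15a guide: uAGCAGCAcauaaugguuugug
miR-16#: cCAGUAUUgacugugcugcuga
miR-16 guide: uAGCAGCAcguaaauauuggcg
miR-322#: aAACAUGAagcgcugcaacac
miR-322 guide: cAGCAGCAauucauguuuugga
miR-503#: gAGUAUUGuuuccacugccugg
miR-503 guide: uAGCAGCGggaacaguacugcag
miR-24-2#: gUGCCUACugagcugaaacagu
miR-24 guide: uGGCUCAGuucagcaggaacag
miR-186#: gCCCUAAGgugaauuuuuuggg
miR-186 guide: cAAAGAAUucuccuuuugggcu
miR-872#: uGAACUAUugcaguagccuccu
miR-872 guide: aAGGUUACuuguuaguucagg
miR-29b#: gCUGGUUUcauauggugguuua
miR-29b guide: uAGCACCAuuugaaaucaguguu
miR-881#: cAGAGAGAuaacagucacaucu
miR-881 guide: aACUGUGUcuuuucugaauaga
The seeds show how the strands of related hairpins differ. The guides of let-7a, let-7c and let-7g share the seed GAGGUAG, whereas their 3 passenger strands each have a seed of their own. The guides of miR-15a, miR-16 and miR-322 share AGCAGCA, and their passenger strands share none. Over all 24 tested passenger strands with a RefSeq mature sequence the seeds were 24 different ones, against 18 different seeds in the 23 guides listed. Of the 23 hairpins with both strands listed, the guide began with U in 11 and the passenger strand in 3, while G began 1 guide and 7 passenger strands. The median GC content was 43.5% in these guides and 50.0% in these passenger strands.

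All 59 passenger strands lay in the second block of assays (pool B), which had its own 5 endogenous small RNA controls (U6, U87, Y1, snoRNA135 and snoRNA202). The mean Ct of these controls ran from 19.0 to 21.1 in WT and was 22.1, 19.3 and 19.3 in KO replicates 1, 2 and 3. KO replicate 1 therefore had the latest controls of the 6 samples, and it had 219 of 596 assays below Ct 35, where the other 5 samples had 277 to 309. All 6 myeloid markers, miR-223 included, were below Ct 35 in all 6 samples. Markers of other cells were found as well: both lymphocyte markers (miR-150 and miR-181a), the 4 stromal markers and 4 of 5 epithelial markers were below Ct 35 in all 6. Detection alone thus does not set macrophages apart from these cells. Endothelial miR-126-3p was below Ct 35 in 3 WT and 2 KO samples, and erythroid miR-451 in 1 WT and 2 KO samples. Of the neural markers, miR-9 was below it in 3 WT and 2 KO samples and miR-124 in 1 WT sample, and miR-133a of muscle was below it in 1 sample of each group. miR-1 of muscle and miR-122 of liver were at Ct 40 throughout. The summed log2 level of the myeloid markers relative to their controls was 4.82 to 5.72 in WT and 2.99 to 3.85 in KO, that of the lymphocyte markers -3.02 to -2.38 and -5.12 to -4.01, and that of the epithelial markers -3.43 to -3.06 and -5.48 to -4.31. All of these markers are miRNAs, and the part of such cells in the results was not tested.

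The passenger strands were detected about as often as miRNA assays as a whole in WT, and less often in KO replicate 1. With Ct 35 as the ceiling of detection, 31, 29 and 30 of the 59 were below it in WT replicates 1, 2 and 3. In KO replicates 1, 2 and 3 the counts were 19, 27 and 29. As shares of the 59 these were 49.2% to 52.5% in WT and 32.2% to 49.2% in KO, beside 51.5% to 51.8% and 36.7% to 48.7% of all miRNA assays. The drop was thus deepest in KO replicate 1, the sample with the latest controls, and the part of the controls in it was not tested. All 28 passenger strands found in every WT sample are the ones tested below, and 19 of these were also found in every KO sample.

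Of the other 31 passenger strands, 27 were below the ceiling in no sample. The 22 at Ct 40 in all 6 samples included miR-92a# of the miR-17 cluster, miR-145#, miR-181A-2#, miR-203# and miR-101a#. A further 5 amplified only at Ct 35 or later in at most 3 samples, namely let-7d#, miR-19a#, miR-150#, miR-196a# and miR-470#. The last 4 crossed the ceiling in some samples without filling a group. miR-138#, partner of a neuronal miRNA, amplified at Ct 36.00, 35.02 and 30.72 in WT against 35.46, 32.50 and 33.92 in KO. miR-218-1# was below 35 in 2 WT samples and 1 KO sample, miR-10b# in 2 WT samples and miR-376b# in 1 WT sample. No fold is given for these 31.

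The main question was how far passenger strands were lower in the KO samples than in the WT samples. For each, the Ct was capped at 35 and the mean Ct of the 5 pool B controls was subtracted, and minus this difference is the log2 relative abundance. Relative to the controls, 7 of the 28 tested passenger strands were lower in KO by limma, with p values adjusted by Benjamini-Hochberg over the 282 tested assays and a threshold of 0.05, none was higher, and 21 did not pass. The 7 were let-7g#, miR-15a#, let-7a#, miR-872#, miR-503#, miR-186# and miR-24-2#, with falls between 4.07-fold and at least 5.82-fold. They make up 25% of those tested, and over the whole panel 37.2% of tested assays were lower and 0.355% were higher. At an unadjusted p under 0.05, 16 passenger strands (57.1%) were lower and 0 were higher, beside 53.2% and 0.709% of all tested assays.

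The direction was more uniform than the calls. The difference between KO and WT was negative in 26 of 28, or 92.9%, beside 87.6% of all tested assays. In 19 of 28 (67.9%) every KO sample lay below every WT sample, beside 59.9% over the panel, and in 0 every KO sample lay above, beside 1.06%. These counts partly follow from the filter, since 9 of the 28 (5 of the 19) had a KO well at the ceiling and were tested through their WT values alone. Of the 19 passenger strands below the ceiling in all 6 samples, 17 had a negative difference (89.5%), 14 had every KO sample below every WT sample (73.7%) and 5 were lower by the test (26.3%), with a median of -1.84. Over the 201 panel assays that were below the ceiling in all 6 samples these shares were 86.1%, 64.7% and 41.8%, with a median of -1.82. Over all 28 the median difference, in log2 units, was -1.99, or 3.97-fold, and that over all tested assays was -1.91, or 3.76-fold. The 72 tested assays of pool B without the passenger mark had a median of -0.76, with 18.1% lower and 25% with every KO sample below every WT sample, and the 179 of pool A had a median of -2.03 with 46.9% lower. These differences between sets were not tested.

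The 7 calls lay close to the threshold, with adjusted p values from 0.0312 to 0.0462, and 10 more passenger strands had an adjusted p between 0.05 and 0.1. The count moved with single samples. Leaving out KO replicate 1 gave 8 of 29, beside 34.5% of all assays then tested, with 5 of the 7 among them and let-7c-1#, miR-20a# and miR-676# added. Leaving out KO replicate 3 gave 17 of 28, beside 39.3%, with all 7 among them. It was 0 without KO replicate 2 or without any 1 of the WT replicates. With the replicate number as a block it was 10, of which 6 were among the 7, and 41.8% of all tested assays were then lower. In limma 0 passed without normalisation to controls, with a global mean as the reference, or without the filter on detection. In these settings 2 of 28, 9 of 28 and 15 of 32 were lower at an unadjusted p under 0.05, beside 14.2%, 11.7% and 41.2% of the panel. The global mean was taken in each pool over its miRNA assays below Ct 35 in all 6 samples. In the sets without 1 sample and with 0 calls, 8 to 11 of the 28 or 29 tested were lower at an unadjusted p under 0.05, beside 34.9% to 47.2% of the panel.

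**Figure D1:**
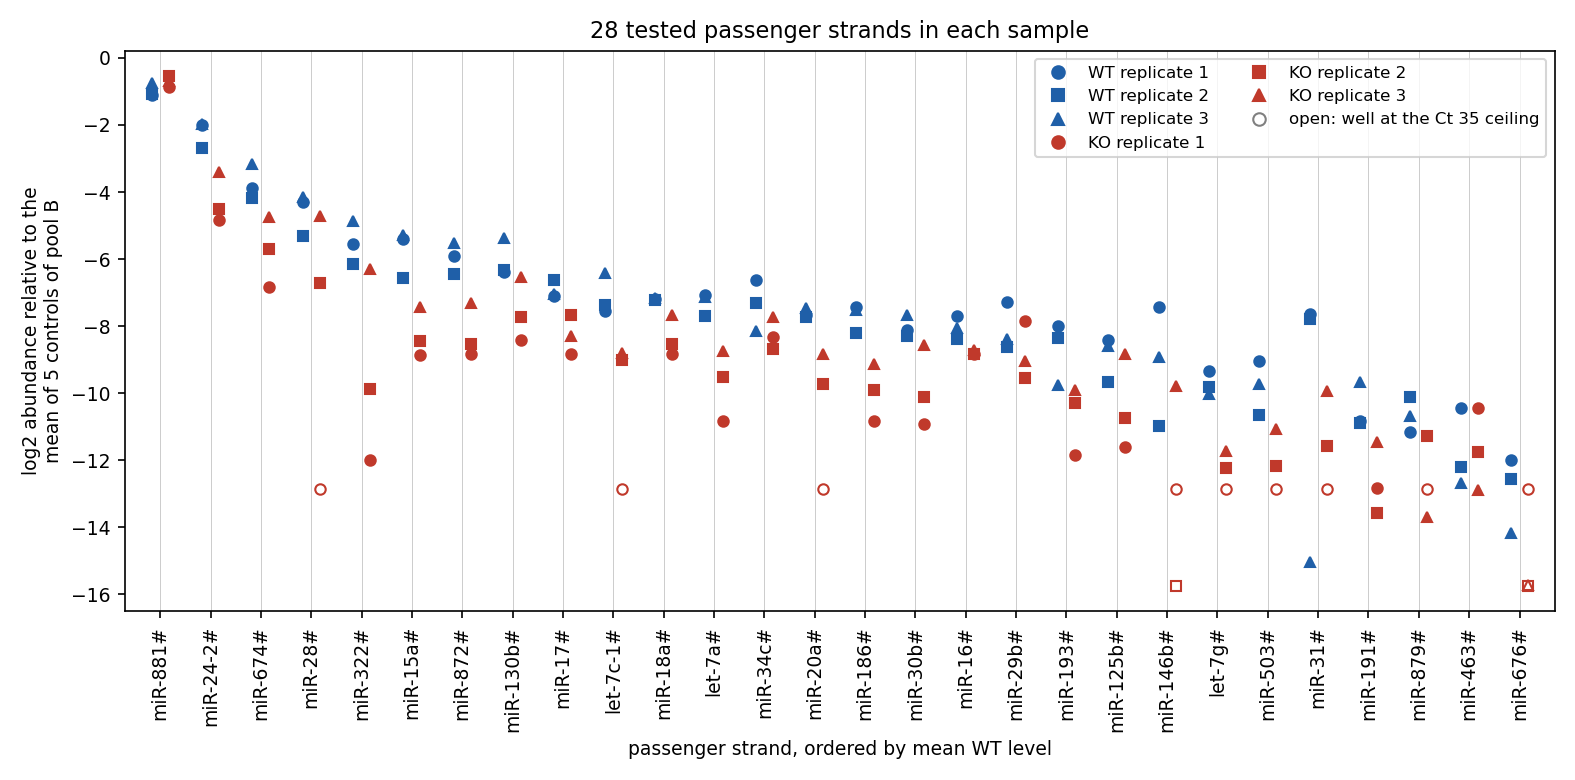
Log2 abundance relative to the mean of 5 pool B controls (y axis) of the 28 tested passenger strands (x axis, ordered by mean WT level) in each of 3 WT (blue) and 3 KO (red) samples; open symbols are wells at the Ct 35 ceiling. In 19 of the 28 all red symbols lie below all blue ones, and all 9 strands with an open symbol have one in KO replicate 1.

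**Figure D2:**
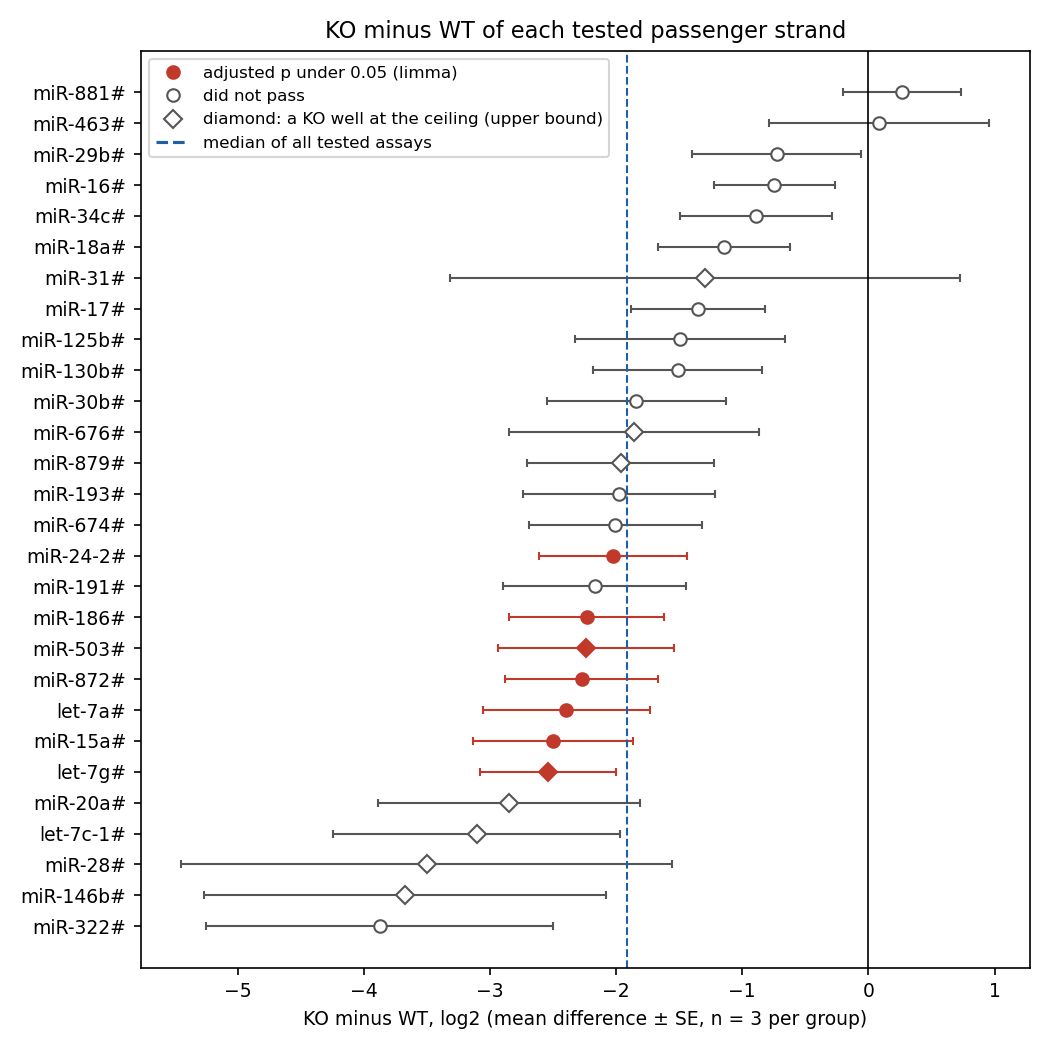
KO minus WT difference (x axis, log2, mean ± SE, n = 3 per group) of each tested passenger strand (y axis); red symbols passed the test, diamonds have a KO well at the ceiling and the dashed line is the median of all 282 tested assays, -1.91. Of the 28, 26 lie left of 0, and the 7 that passed lie between -2.54 and -2.02.

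The let-7 family, which restrains growth and developmental timing genes, contributed 4 passenger strands, of which 3 were tested and 2 fell. let-7g# amplified at Ct 30.42, 29.12 and 29.03 in WT against 40, 31.49 and 30.99 in KO. Every KO sample was lower than every WT sample, and KO replicate 1 did not amplify. let-7g# fell by 2.54 on the log2 scale (SE 0.54, limma adjusted p = 0.0312), at least 5.82-fold because of the well at the ceiling. The call depended on the ceiling as well. With a ceiling of 38 or with none let-7g# did not pass (range of adjusted p over its 18 alternatives 0.0157 to 0.256).
let-7a# amplified at Ct 28.16, 27.001 and 26.15 in WT against 32.97, 28.78 and 28.03 in KO. The groups did not overlap relative to the controls, and let-7a# fell by 2.40 (SE 0.66, adjusted p = 0.0340), or 5.26-fold. let-7c-1#, with all KO samples lower and KO replicate 1 above the ceiling, differed by -3.11 or lower (SE 1.14) and did not pass, at an adjusted p of 0.0632. Without KO replicate 1 it was -1.79 and passed, at an adjusted p of 0.0455. The hairpins of let-7d and let-7a lie 2142 bases apart between their passenger strands on the minus strand (chr13:48536024-48538209), and let-7d# amplified in 1 WT sample only, at Ct 35.6.

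The miR-15/16 group, whose guides restrain cell cycle and survival genes such as Bcl2, had all 4 passenger strands tested and 2 of them fell. miR-15a# amplified at Ct 26.48, 25.86 and 24.28 in WT against 30.99, 27.69 and 26.72 in KO. All KO samples were lower relative to the controls, and miR-15a# fell by 2.50 (SE 0.63, adjusted p = 0.0321), or 5.66-fold. miR-503# had 30.13, 29.96 and 28.72 in WT against 35.48, 31.44 and 30.36 in KO, and fell by 2.24 (SE 0.70, adjusted p = 0.0462), or at least 4.71-fold. This call was lost with the replicate block (adjusted p = 0.0571, range over its 18 alternatives 0.0375 to 0.256).
miR-322#, the rodent counterpart of the human miR-424 passenger strand, had widely spread KO samples. Its Ct values were 26.62, 25.45 and 23.88 in WT against 34.15, 29.13 and 25.58 in KO. KO replicate 3 lay near the WT samples and KO replicate 1 far below them, and with that spread the difference of -3.87 (SE 1.38) did not pass, at an adjusted p of 0.0583. Without KO replicate 1 it was -2.57 (adjusted p = 0.142). miR-16# had the smallest difference of this group. Its Ct values were 28.77, 27.70 and 27.07 in WT against 30.98, 28.10 and 27.997 in KO, and the difference was -0.75 (95% interval -1.88 to 0.39, adjusted p = 0.227).

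Strands cut from neighbouring hairpins could be set against each other within a sample and a pool, where the controls cancel. The offset between a pair of assays holds their efficiencies, so only its change from WT to KO is read. miR-16# and miR-15a# lie 122 bases apart on the minus strand (chr14:61631894-61632059), in the genes Mir16-1 and Mir15a. The log2 abundance of miR-15a# less that of miR-16# came to 2.29, 1.84 and 2.79 in WT, and in KO it came to -0.02, 0.41 and 1.28. The KO and WT samples did not overlap, and the mean changed from 2.31 ± 0.47 to 0.56 ± 0.66 (SD, n = 3 each). Both hairpins are known to be cut from 1 primary transcript. This pair was picked out after its values were seen and has no test. miR-322# and miR-503#, 260 bases apart (chrX:53053987-53054289), differed by 4.28 ± 0.70 in WT and 2.65 ± 1.98 in KO, with overlapping samples.

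The miR-17 cluster and its relatives, which promote proliferation, gave 6 passenger strands, of which 3 were tested and none passed. miR-20a# had a difference of -2.85 or lower (adjusted p = 0.0623), miR-17# of -1.35 (adjusted p = 0.0764) and miR-18a# of -1.15. Without KO replicate 1, in which it did not amplify, miR-20a# was at -1.66 and passed (adjusted p = 0.0422). All 3 had every KO sample below every WT sample. miR-18a# was the most even of all in WT, with Ct values of 28.28, 26.52 and 26.16 that became -7.19 ± 0.03 (SD, n = 3) relative to the controls. Its KO values were 30.96, 27.78 and 26.95, or -8.34 ± 0.59, and its adjusted p was 0.110. The 3 passenger strands lie within chr14:115043721-115044240 on the plus strand. miR-18a# minus miR-20a# was 0.48, 0.52 and 0.29 in WT against 4.04, 1.20 and 1.16 in KO, without overlap. In the other pairs of these 3 strands the groups overlapped. miR-17# minus miR-18a# was 0.27 ± 0.27 in WT and 0.07 ± 0.74 in KO (SD, n = 3 each). miR-17# minus miR-20a# was 0.70 ± 0.36 in WT and 2.21 ± 1.75 in KO. In the pairs with miR-20a#, KO replicate 1 is a lower limit because miR-20a# did not amplify in it. None of these pairs was tested.

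Of the miR-23/27/24, miR-29 and miR-30 families 1 passenger strand each was on the panel, and all 3 were tested. miR-24-2# was the second earliest of all, with Ct 23.08, 22.01 and 20.97 in WT against 26.97, 23.77 and 22.68 in KO. Every KO sample lay lower relative to the controls, and miR-24-2# fell by 2.02 (SE 0.59, adjusted p = 0.0389), or 4.07-fold. miR-29b#, whose guide restrains collagen and matrix genes, had 28.34, 27.92 and 27.38 in WT against 29.99, 28.80 and 28.32 in KO. KO replicate 1 lay within the range of WT, and the difference was -0.73 (95% interval -2.32 to 0.87, adjusted p = 0.406). miR-30b# differed by -1.84 with no overlap and an adjusted p of 0.0728.

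Among strands of miRNAs known from blood cells, 4 were on the panel, 2 were tested and none passed. miR-146b#, whose guide belongs to the feedback on NF-kB signalling, amplified at Ct 28.52, 30.30 and 27.93 in WT against 40, 40 and 29.06 in KO. It did not amplify in 2 KO samples, while KO replicate 3 lay above WT replicate 2, and the difference was -3.68 or lower (SE 1.59, adjusted p = 0.0994), and -2.20 or lower without KO replicate 2. miR-191# differed by -2.17 without overlap (SE 0.72, adjusted p = 0.0521) and passed with the replicate block (adjusted p = 0.0420, range over its 19 alternatives 0.0255 to 0.309).

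Of the passenger strands outside these families, 2 fell. miR-872# amplified at Ct 26.98, 25.74 and 24.52 in WT against 30.97, 27.78 and 26.59 in KO. All KO samples were lower, and miR-872# fell by 2.27 (SE 0.61, adjusted p = 0.0340), or 4.83-fold. miR-186# had 28.50, 27.52 and 26.52 in WT against 32.96, 29.18 and 28.40 in KO, and fell by 2.23 (SE 0.62, adjusted p = 0.0340), or 4.70-fold, again without overlap.
Several early or late members of this set missed the threshold. miR-674# amplified at Ct 24.97, 23.50 and 22.18 in WT against 28.97, 24.96 and 24.02 in KO. Its groups did not overlap, and the difference of -2.01 had an adjusted p of 0.0555, or 0.0449 with the replicate block (range over 19 alternatives 0.0268 to 0.319). miR-28# had 25.38, 24.63 and 23.16 in WT against 40, 25.98 and 23.99 in KO. Its difference was -3.50 or lower (SE 1.94, adjusted p = 0.169), and -1.12 without KO replicate 1, the well that did not amplify. KO replicate 3 lay within the range of WT. miR-676# was the 1 passenger strand found in all WT and no KO sample, a pattern shown by 10 assays over the panel. Its Ct values were 33.09, 31.88 and 33.16 in WT against 40, 36.02 and 40 in KO, so that it was near the ceiling in WT as well, and its difference of -1.86 or lower had an adjusted p of 0.159, and without KO replicate 1, where the ceiling stood highest, it was -2.82 or lower and passed (adjusted p = 0.0422).

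The rest of this set is given by its differences. miR-193# differed by -1.98 (adjusted p = 0.0728) and miR-879# by -1.96 or lower (adjusted p = 0.0686), both without overlap of the groups. miR-130b#, from a hairpin tied to fat cell differentiation, differed by -1.51 without overlap (adjusted p = 0.103). miR-879# and miR-130b# passed with the replicate block, at adjusted p = 0.0490 and 0.0484 (ranges over their 18 and 19 alternatives 0.0490 to 0.511 and 0.0484 to 0.482). miR-34c#, partner of a miRNA induced by p53, amplified at Ct 27.70, 26.61 and 27.15 in WT against 30.48, 27.94 and 26.995 in KO, with overlapping groups and a difference of -0.89 (SE 0.60, adjusted p = 0.254).
miR-125b#, partner of a miRNA that acts in myeloid development, differed by -1.49 (SE 0.83, adjusted p = 0.169), and by -0.88 without KO replicate 1. A second deposited table, of relative quantities, gives other values under this name, for which the difference was 0.43, and which table names the assay correctly is not known.

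miR-31# was the most scattered of the 28, with a WT sample that stood apart. Its Ct values were 28.73, 27.11 and 34.04 in WT against 35.01, 30.82 and 29.22 in KO. WT replicate 3 was the lowest of the 6 samples relative to the controls, and the difference was -1.29 with a 95% interval of -6.09 to 3.50. Without WT replicate 3 it was -3.73 (SE 0.98) and still did not pass, at an adjusted p of 0.0733 (range over its 17 alternatives 0.0733 to 0.994). The guide miR-31 did the same, with 28.69, 27.01 and 32.31 in WT. The 4 stromal markers, of which none was at Ct 40 in any sample, had a summed log2 level of -0.70, -1.30 and -7.62 in the WT replicates and -4.37 to -3.34 in KO, so that WT replicate 3 stood apart in them too. Their part in the scatter of miR-31# was not tested.

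The 2 passenger strands with a positive difference come from X-linked hairpins known mainly from the testis. miR-881# was the earliest of the passenger strands, with Ct 22.17, 20.40 and 19.76 in WT against 23.03, 19.81 and 19.98 in KO. Relative to the controls these were -0.98 ± 0.20 in WT and -0.71 ± 0.17 in KO (SD, n = 3 each), with overlapping groups, a difference of 0.27 and a 95% interval of -0.84 to 1.38 (adjusted p = 0.669). The guide miR-881 was at Ct 40 in all 6 samples. miR-463# had 31.53, 31.52 and 31.68 in WT against 32.59, 31.00 and 32.16 in KO, a difference of 0.09 (95% interval -1.98 to 2.16, adjusted p = 0.947). Both signs depended on the reference: with U6 alone the differences were -0.008 for miR-881# and -0.19 for miR-463#, and without a reference -0.16 and -0.34.

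The 3 KO samples differed in how low their passenger strands lay. Set against the WT mean, the median passenger strand lay at -2.80 (6.95-fold lower) in KO replicate 1, at -2.02 (4.07-fold) in KO replicate 2 and at -1.06 (2.08-fold) in KO replicate 3. KO replicate 1 was the lowest of the KO samples for 20 of the 28 strands, and KO replicate 3 the highest for 22. In each KO sample most strands were below the WT mean, 24, 26 and 25 of 28. KO replicate 1 also had the latest controls, and since Ct 35 then stood for a relative abundance of -12.9 rather than about -15.7, its 9 strands at the ceiling are bounded at a higher level than in the other KO samples. Over all tested assays the sample medians had the same order, -8.20, -7.34 and -6.86 in KO beside -5.71 to -5.41 in WT. Over the passenger strands they were -10.9, -9.63 and -8.77 in KO and -7.77 to -7.43 in WT.

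**Figure D3:**
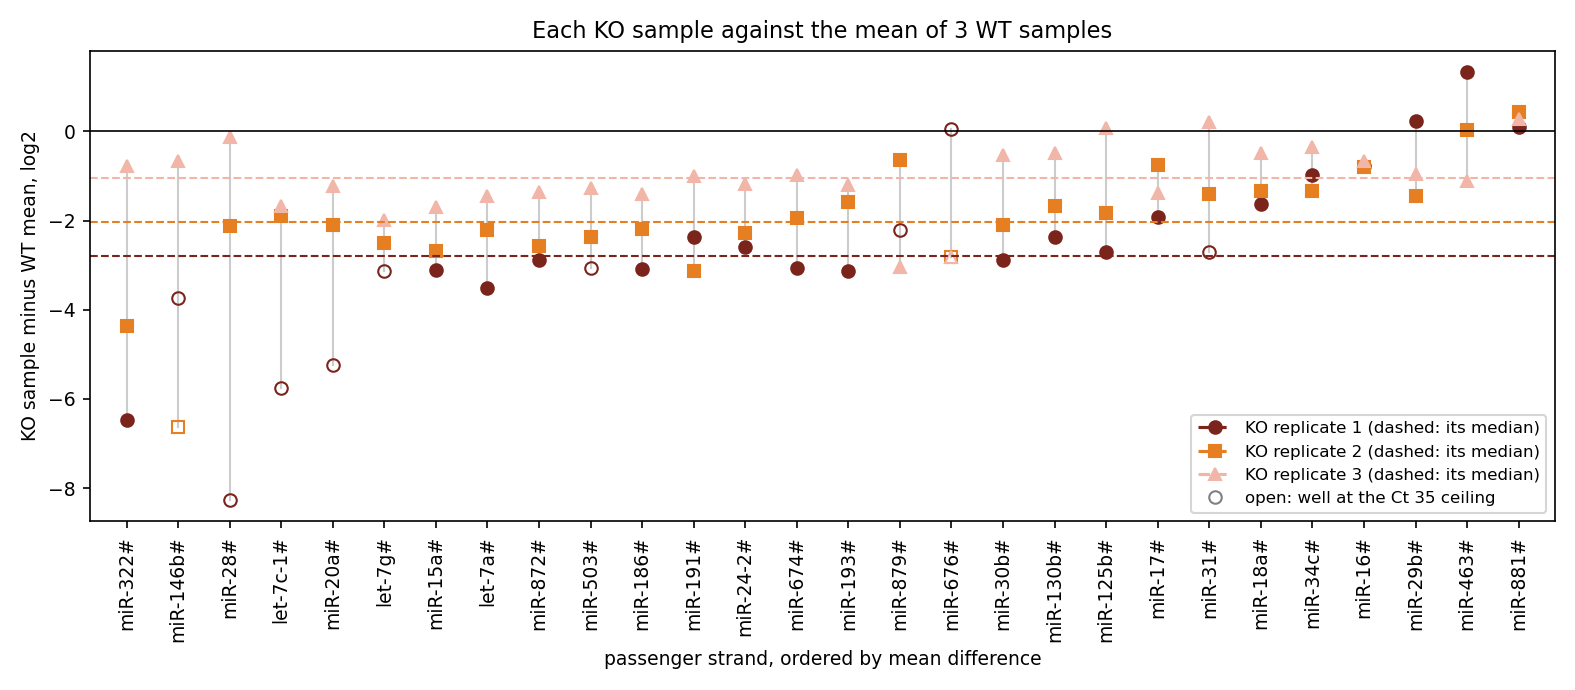
Each KO sample's log2 relative abundance minus the mean of the 3 WT samples (y axis) for the 28 tested passenger strands (x axis, ordered by mean difference); open symbols are wells at the Ct 35 ceiling and dashed lines the median of each KO sample. The medians lie at -2.80, -2.02 and -1.06 for KO replicates 1, 2 and 3, and KO replicate 3 is the highest symbol for 22 strands.

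The second question was whether passenger and guide of 1 hairpin fell alike. The guide was found by name for 57 of the 59 (51 in pool A, 6 in pool B), and 37 guides were tested, of which 15 fell (40.5%) and none rose, with a median difference of -1.90. For miR-125b# the panel holds both a 5p and a 3p assay, so the name rule gave no guide. The 5p assay, generally taken as the guide, differed by -1.22 (adjusted p = 0.128), and it is not among the pairs below. In 23 hairpins both strands were tested. The passenger strands of these had a median difference of -2.17 and the guides of -1.99, and both strands were negative in 22. By the test of each strand, both fell in 4 hairpins (let-7a, let-7g, miR-503 and miR-872), the passenger strand alone in 3, the guide alone in 7 and neither in 9. With the replicate block 20 guides fell (54.1%, beside 41.8% of all tested assays): miR-17, miR-20a, miR-20b, miR-24, miR-141 and miR-191 passed in addition (adjusted p = 0.0431 to 0.0485) and miR-503 no longer did (adjusted p = 0.0535). Both strands then fell in 7 hairpins, with miR-130b, miR-191, miR-24 and miR-674 added and miR-503 lost, the passenger strand alone in 2, the guide alone in 7 and neither in 7. Passing for 1 strand only does not show that the strands differ, so the difference itself was tested.

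For that test the guide's log2 relative abundance was subtracted from that of the passenger strand in each sample, and the KO and WT values were compared by limma over all 39 hairpins of the panel with both strands tested. The levels of the strands themselves were not compared, since each assay has its own efficiency. All passenger strands were in pool B, and apart from miR-322 and miR-463 the guides of the 23 hairpins were in pool A. The pools had separate controls, which do not cancel in these differences. The median KO minus WT difference was -2.03 in pool A and -0.76 in the unmarked assays of pool B. A difference between strands cannot be told apart there from a difference between pools. None of the 23 hairpins passed after Benjamini-Hochberg adjustment (smallest adjusted p = 0.278, and 1 at an unadjusted p under 0.05), while over the 39 hairpins 2.56% passed as lower and 2.56% as higher. The change was negative in 14, meaning a passenger strand that moved down relative to its guide, and positive in 9. The median was -0.27, and 16 of 23 changes were smaller than 1. Both strands were below the ceiling in all 6 samples in 13 of the 23 hairpins. The others had at least 1 well at the ceiling, so their changes were not fully measured. The standard errors ran from 0.51 to 1.47, so that a change near 1 was not detectable for most hairpins with 3 samples a group. Across the 23 hairpins the changes of passenger and guide had a Pearson r of 0.58 and a Spearman rho of 0.37. This is a description: all points share the 6 samples and their control values.

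The hairpin with the smallest p was miR-29b, where the guide fell and the passenger strand did not pass. miR-29b# minus its guide was -3.05, -3.12 and -2.65 in WT against -0.72, -2.23 and -0.96 in KO. The KO samples all lay above the WT samples, which in either direction occurred in 2 of the 23 hairpins and in 15.4% of the 39. The change was 1.63 (SE 0.59, 95% interval 0.25 to 3.02, adjusted p = 0.278), made up of -0.73 for the passenger strand and -2.36 for the guide. The RefSeq table lists the miR-29b guide at 2 loci and the passenger strand was matched to Mir29b-1 alone, so the guide assay can also read the other copy. The guides of let-7c, miR-16 and miR-24 are likewise listed at 2 loci.
miR-15a was the other hairpin without overlap, in the opposite direction. miR-15a# minus its guide was -3.33, -4.28 and -2.58 in WT against -4.84, -4.71 and -4.34 in KO. The change was -1.24 (SE 0.60, 95% interval -2.64 to 0.17, adjusted p = 0.568), from -2.50 for the passenger strand and -1.26 for the guide.

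The next hairpins by p had wider intervals. miR-463# minus its guide changed by -1.90 or lower (95% interval -4.53 to 0.73), with the guide near the ceiling in most samples. This was made up of 0.09 for the passenger strand and 1.99 or higher for the guide. miR-34c# minus its guide changed by 1.48 or more (-0.99 to 3.94), since the guide was at the ceiling in KO replicate 1. miR-18a# minus its guide changed by 0.94 (-0.61 to 2.48), and all 3 had an adjusted p of 0.635. At the other end, miR-872 had almost equal changes of its strands, -2.27 and -2.37, with a difference of 0.10 and an interval of -1.33 to 1.52. miR-674 had -2.01 and -1.85, with a difference of -0.16 and an interval of -1.88 to 1.57. Intervals this wide include sizeable differences of either sign.

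**Figure D4:**
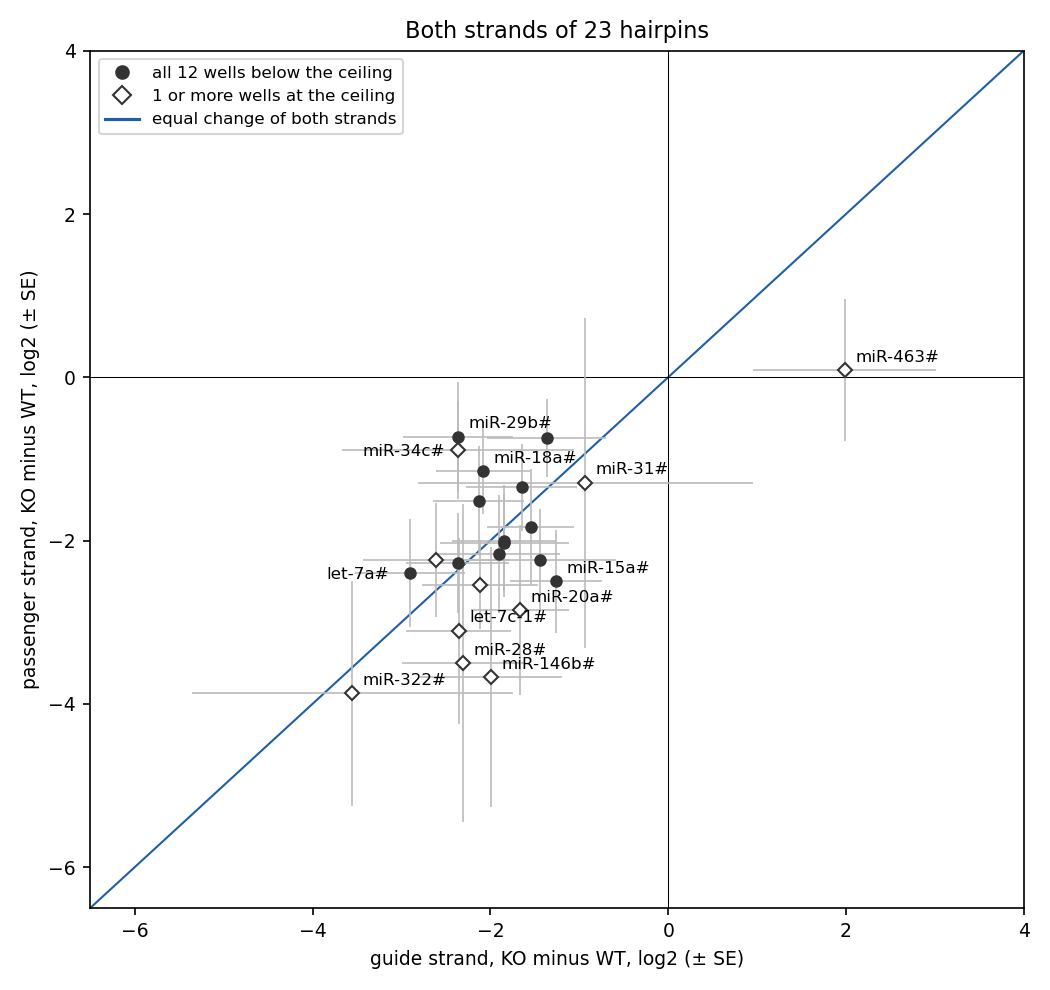
KO minus WT difference of the passenger strand (y axis, log2 ± SE) against that of the guide (x axis, log2 ± SE) for the 23 hairpins with both strands tested; open diamonds have a well at the ceiling and the line marks equal change. In 22 hairpins both values are negative, miR-29b# lies above the line at -0.73 against -2.36, and miR-15a# below it at -2.50 against -1.26.

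In 18 further hairpins 1 strand alone could be tested. In 14 it was the guide, among them let-7d, whose guide fell by 2.36 (adjusted p = 0.0312), miR-181a, whose guide fell by 2.05 (adjusted p = 0.0340), and miR-92a, whose guide differed by -1.03 (adjusted p = 0.194). Their passenger strands were at or above the ceiling in at least 1 sample of each group. In 4 it was the passenger strand, namely miR-193#, miR-676#, miR-879# and miR-881#. The guides miR-879 and miR-881 were at Ct 40 in all samples, miR-676 amplified in 1 WT sample at Ct 33.04, and miR-193 in 4 samples between 32.9 and 34.3. Whether the panel's older names give the true guide of these hairpins was not tested.

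The arm of the hairpin was a further feature that the names did not use. Of the 24 tested passenger strands with a RefSeq sequence, 19 came from the 3p arm and 5 from the 5p arm. On the 3p arm 6 fell and the median difference was -2.24. On the 5p arm 1 fell (miR-24-2#) and the median was -1.51. The 5p strands were miR-24-2#, miR-29b#, miR-130b#, miR-193# and miR-881#, too few for a comparison, and no test was made.

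The authors' deposited table of fold changes gave values for every passenger strand. The authors' deposited table listed a fold of KO over WT under 1 for 25 of the 28 tested. For 20 of the 28 the fold in the authors' deposited table and the one here lay within 1.5 times of each other, as for miR-15a#, with 0.181 in the authors' deposited table and 0.177 here. The other 8 were further apart. The authors' relative quantities followed from Ct values without a ceiling and with 3 controls (U6, snoRNA135 and snoRNA202). The folds here rest on 5 controls, the ceiling of Ct 35 and group means of log2 values, so the methods differ. With the 3 controls in place of 5 the median difference of the passenger strands was -2.01, beside -1.99. miR-322# was below the ceiling in all 6 samples. How the authors averaged their samples, and what set the folds apart, was not tested. The authors' deposited table had 0.0309 for miR-676#, beside 0.275 or lower here, and 0.363 for miR-28#, beside 0.0883 or lower. It had 0.196 for miR-322#, beside 0.0682, and 0.152 for miR-31#, beside 0.408 or lower. It had 1.16 for miR-125b#, beside 0.355 here, the strand whose name carries other values in the relative quantities. For let-7c-1#, miR-146b# and miR-20a# the folds in the authors' deposited table were 1.60 to 1.76 times those here, which are upper limits. The 22 passenger strands at Ct 40 in all samples also have a fold in the authors' deposited table, for example 1.70 for miR-145#, so that a fold there need not stand for a measured strand. The authors' deposited table lists 0.212 for miR-101a#, a name that in the relative quantities carries the values of the assay called miR-101b in the Ct table.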

How the data were processed

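MicroRNAs were measured by TaqMan RT-PCR, per the labels' protocols after mirVana isolation, reverse transcription and preamplification, in 3 WT and 3 KO samples. Instrument, threshold setting and software are not given in the sources used here. Ct scores, not normalised, were deposited by the authors for 608 assays, with 40 for wells without amplification. Of the other deposited tables, 1 holds the authors' relative quantities, a ratio against WT after normalisation to endogenous controls, and 1 their fold of KO over WT. All tests used the Ct scores. The 2 blocks of the table, each with its own 5 controls, were called pool A and pool B.

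Ct values at or above 35 were set to 35, and the mean Ct of the 5 controls of the same pool minus this value is the log2 relative abundance. Assays below 35 in every sample of WT, of KO or of both were tested, 282 in all. A difference with a KO well at the ceiling is a lower limit of the fall. The comparison of KO with WT used limma 3.58.1 (lmFit and eBayes, two-sided, genotype alone) in R 4.3.3, with Benjamini-Hochberg adjustment over all 282 assays, or over 39 hairpins for strand differences, and a threshold of 0.05. The scripts were tested on simulated data. The number of samples limits the precision; exact permutation of 3 against 3 could not go below p = 0.1. Intervals are 95% intervals of the fit. Sequences were matched with Python 3.11.15 and pandas 2.3.3, and figures drawn with matplotlib 3.10.9.

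Passenger strands, gene groups and tests were chosen with earlier results of these data known. Every tested passenger strand is named. Values of all samples are given for those past the threshold, those found in all of 1 group and none of the other, the 5 with the lowest WT Ct, the 3 highest and 3 lowest differences, and the 5 hairpins with the smallest p; a few others were added after their values were seen. Guides were found by name. Samples with the same replicate number deviated together from their group means (correlations of 0.23, 0.28 and 0.27 across assays, beside -0.28 to 0.01 for unlike numbers), so same-number samples count as pairs here, which rests on the data alone because the labels state no batch. The calls, errors and intervals printed leave this pairing out. A blocked fit by replicate number was run as an alternative and is printed where it changes a call. Alternatives were other ceilings, references, filters, variance settings, the block and leaving out each sample.

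The names in the relative quantity table did not follow the Ct table everywhere. In 33 of 596 assays the relative quantities were those of another Ct name, and in the rest they followed from the Ct values within 0.05 on the log2 scale. Among the passenger strands this touched miR-101a#, miR-10b# and miR-125b#. Ct names were used.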

Additional observations from a re-analysis of the deposited data

How the results depend on the processing

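The count of 7 passenger strands lower in KO stood at 6 to 10 in 10 of the 13 alternatives that keep all samples. The direction of the median held in all 13. In these 10 the share of all tested assays that was lower ran from 27.5% to 56.7%. The lowest share came with no ceiling, where 6 of 30 passenger strands were lower. The highest came with assays below the ceiling in all 6 samples, where 10 of 19 were lower. The count became 0 with no filter, with no reference and with the global mean as the reference, settings in which 2 assays of the whole panel were lower, in place of 105. Leaving out each sample in turn gave 0 to 17 passenger strands and 2 to 112 assays of the panel. The replicate block, taken as the pairing, gave 10 passenger strands and 118 assays, and among the passenger strands, their guides and their strand differences no other call changed with it than those given with the results. With the global mean the panel's median moved from -1.91 to -0.20, the median of the passenger strands was -1.35 and 1 strand difference (miR-15a#) passed.

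Signs turned for these. With the names of the relative quantity table, miR-125b# was at 0.43, and 8 passenger strands were lower, miR-101a# among them. miR-463# was at -0.19 with U6 alone, -0.34 with no reference and -0.53 to 0.75 with a sample left out, and miR-881# at -0.0083 and -0.16 with U6 alone and no reference. With the global mean, the strand differences were -0.73 for let-7a#, -0.62 for miR-130b#, -0.62 for miR-16#, -0.94 for miR-17#, -0.31 for miR-18a#, -0.87 for miR-503# and -1.15 for miR-872#, which was at -0.084 with U6 alone. A ceiling of 33 gave 0.25 for let-7g# and 0.39 for miR-191#. For miR-322# a ceiling of 38 gave 0.68 and no ceiling 1.35. With a sample left out, strand differences ran from -0.17 to 0.94 for let-7a#, -1.52 to 0.27 for let-7c-1#, -0.10 to 1.10 for miR-130b#, -0.77 to 0.45 for miR-191#, -0.62 to 0.26 for miR-24-2#, -2.54 to 0.50 for miR-28#, -0.77 to 0.0007 for miR-30b#, -0.74 to 0.16 for miR-31#, -1.26 to 0.73 for miR-322#, -0.12 to 0.97 for miR-503#, -0.73 to 0.23 for miR-674# and -0.23 to 0.48 for miR-872#. Each reference was taken by pool. A change of reference therefore moved the strand differences of all hairpins with a guide in pool A by the same amount. Apart from that, the cause was not tested in any of these. Late Ct values and 3 samples a group limit all strand differences.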

Other observations

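Chosen after the data were seen, the decimals of the Ct values were counted. Of the amplified miRNA wells, 10.7% to 12.3% in WT had a fractional part of 0.95 or more, just under a whole cycle, where evenly spread decimals would give 5%. In KO replicates 1, 2 and 3 the shares were 33.6%, 15.9% and 20.4%. Among the passenger strands that amplified they were 12 of 23 wells in KO replicate 1, 7 of 29 in KO replicate 2 and 8 of 34 in KO replicate 3, beside 3 of 33, 2 of 30 and 2 of 36 in WT. The KO values of let-7a#, miR-15a#, miR-872#, miR-24-2# and miR-674# in KO replicate 1, at Ct 32.97, 30.99, 30.97, 26.97 and 28.97, are of this kind. The deposited tables do not say how the values were rounded or fitted, and the effect on the differences was not tested.

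miR-881# had the earliest Ct of the 59 passenger strands in every sample, while the guide miR-881 did not amplify. Its level relative to the pool B controls stayed between -1.09 and -0.55 over the 6 samples.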
